A study of Mus musculus with 7 samples.

Results

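The genes described here encode the enzymes that write and erase methyl and acetyl groups on histones. They were chosen by symbol from the protein-coding genes of GENCODE M21: the Kmt, Setd and Kdm families, the Hdac family, the Kat family with Ep300 and Crebbp, and Ezh1, Ezh2, Eed and Suz12. This gave 59 genes, of which 57 had an accessible region within 200 bp of an annotated TSS, out of 13037 protein-coding genes with such a region. Hdac9 and Kdm6b had none, so they have no promoter value here. The promoters of the 57 genes were covered by 69 of the 55680 regions of the series, and a further 115 regions lay inside the 59 genes away from any TSS, 3 of them in Hdac9 and 1 in Kdm6b. The rule uses symbols and positions, not measured values.

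Accessibility was measured by ATAC-seq, in which a transposase inserts sequencing adapters into exposed DNA, on nuclei of whole liver from male C57BL/6N mice with no treatment or transgene. The young group held 3 samples from mice aged 3 months and the aged group 4 samples from mice aged 18 months, which came from 3 animals, with 2 lobules of 1 animal counted as separate samples. The authors' methods count the 4 aged samples as biological replicates. Which aged samples share an animal is not stated, so p-values measure the spread between samples. The counts in regions ranged from 4474652 to 25461110 per library. Values are counts scaled to the library's total in regions after TMM normalization (CPM), and differences are log2 fold changes of aged over young liver from edgeR's quasi-likelihood test, with p-values adjusted over all 55680 regions and a threshold of 0.05.

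Histone methylation is placed by SET domain enzymes, among them the MLL-type enzymes that act on lysine 4 of histone H3 at active promoters and Polycomb repressive complex 2 (PRC2), which acts on lysine 27 at silent genes. It is removed by the lysine demethylases, most of which carry a Jumonji domain that uses iron and 2-oxoglutarate. Acetylation is placed by acetyltransferases, which accompany active transcription, and removed by deacetylases, which act largely within corepressor complexes and which in liver are known for their role in metabolic gene regulation.

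The promoters of 3 of the 57 genes were more accessible in aged liver, and 0 were less accessible by edgeR. The 3 were those of the acetyltransferase Kat7, the demethylase Kdm4a and the methyltransferase Setd4. The region called for Setd4 held 0 of the starts of its 5 protein-coding transcripts. Among all protein-coding gene promoters 5.02% were more accessible and 1.49% less accessible, so that the count among the enzymes was close to the background. At an unadjusted p under 0.05, 20 of the 57 were higher (35.1%, against 27.3% of protein-coding gene promoters) and 1, Setd7, was lower (1.75%, against 7.69%). DESeq2 called 8 more and 1 less accessible, where it called 11.9% and 1.6% of protein-coding gene promoters, and limma voom 7 and 1, where it called 9.2% and 2.17%. The less accessible promoter was that of Setd7 in both. The 3 calls depended on single libraries: 0 promoters were called more accessible without young replicate 1, young replicate 2, aged replicate 1 or aged replicate 3, 2 (Kat7 and Setd4) without young replicate 3 or aged replicate 4, and 5 without aged replicate 2. In these last 3 fits 3.19%, 4.64% and 6.66% of all protein-coding gene promoters were called more accessible. The fit without aged replicate 4 called 1 promoter less accessible, that of Setd7, and 2.28% of all protein-coding gene promoters. In the 4 fits that gave 0, the share of promoters called more accessible was 0.115%, 0.338%, 0.161% and 0.314%.

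**Figure D1:**
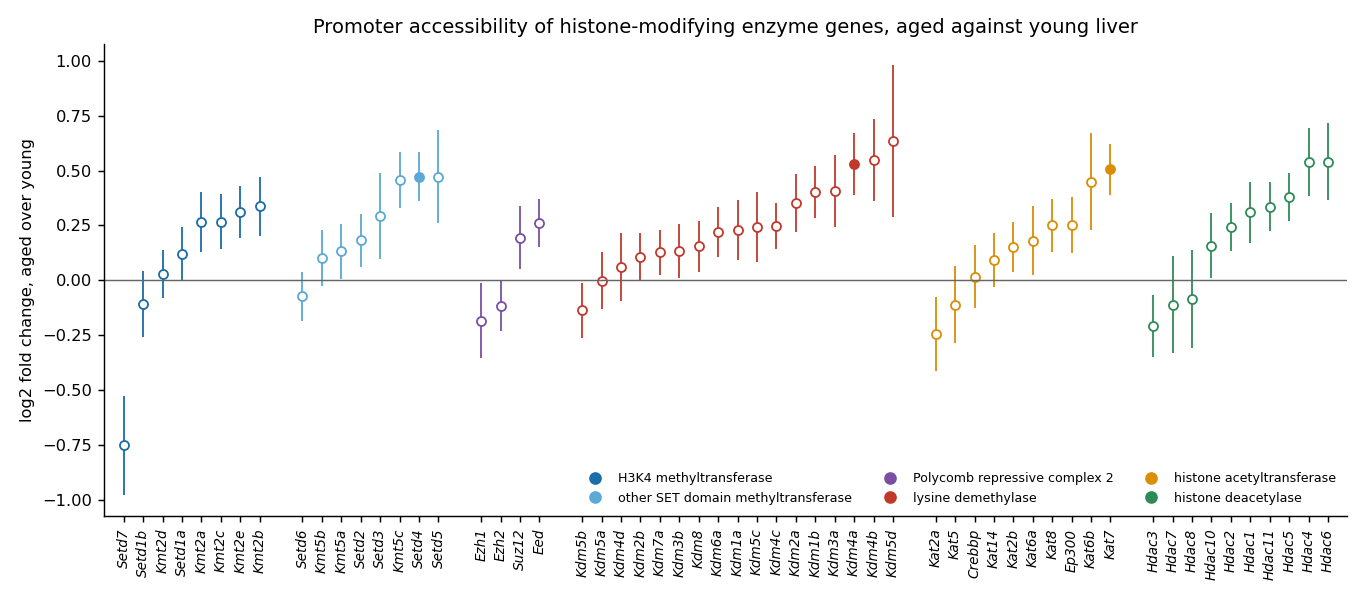
Log2 fold change of promoter accessibility, aged over young, for the 57 enzyme genes with a region at a TSS, ordered by size within 6 enzyme groups. Points are estimates and bars are standard errors, and filled points mark an adjusted p under 0.05 (Kat7, Kdm4a and Setd4). The Setd4 point is for a region that holds none of its protein-coding starts. Most points lie between 0 and 0.63, and Setd7 stands lowest at -0.75.

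The direction of the differences was mostly upward. Of the 57 promoters, 45 had a log2 fold change above 0 (78.9%, against 66.7% of protein-coding gene promoters), and the median was 0.22 against 0.13 for protein-coding genes and -0.035 for all regions. This direction depended on the scaling. Offsets fitted on mean abundance take out any difference that follows abundance, so a median near 0 is built into them. With them the median of the enzymes was -0.018 and that of all protein-coding gene promoters -0.030. In 16 of the 57 promoters every aged sample lay above every young one, 28.1% against a background of 24%, and in 1, that of Setd7, every aged sample lay below every young one, where the background was 7.82%. By enzyme group, the share with every aged sample above every young one was 50% of deacetylases and 35.3% of demethylases. It was 25% each of PRC2 and the other SET domain methyltransferases, 12.5% of H3K4 methyltransferases (Kmt2e alone) and 10% of acetyltransferases.

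The enzyme promoters were more accessible than the median gene, and over all genes the difference with age rose with the level. Their median log2 CPM over the 7 samples was 5.77 against 5.12 for all protein-coding genes, their median GC content 62.7% against 58.7%, and their median ratio of observed to expected CpG 0.77 against 0.71. When all protein-coding gene promoters were divided into 4 bins of equal size by mean log2 CPM, 24 of the 57 fell into the most accessible bin, where the median log2 fold change was 0.34 for the enzymes and 0.31 for all genes, and where all 24 enzymes and 97.3% of all genes lay above 0. In the next bin the medians were 0.13 (16 enzymes, 13 above 0) and 0.20, in the one after it 0.15 (11 enzymes, 7 above 0) and 0.054, and in the least accessible bin -0.15 (6 enzymes, 1 above 0) and -0.27.

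**Figure D2:**
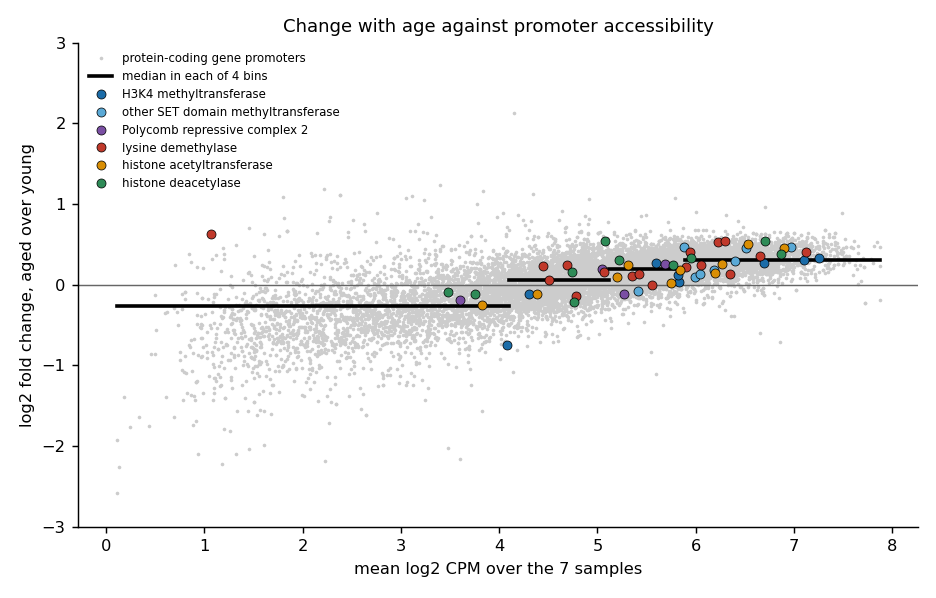
Log2 fold change, aged over young, against mean log2 CPM over the 7 samples for the promoters of 13037 protein-coding genes (grey) and of the 57 enzyme genes (coloured by group). Black lines are the medians of the 4 bins of all genes, which rise from -0.27 in the least to 0.31 in the most accessible bin, while those of the enzymes are -0.15, 0.15, 0.13 and 0.34.

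Samples of 1 age differed among themselves in these promoters. Young replicate 3 had the lowest log2 CPM of the young samples in 36 of the 57 promoters and lay over 0.5 below the mean of the other two in 9, by 0.95 at Setd3, 0.92 at Setd5, 0.91 at Kat6b, 0.83 at Kdm4b, 0.78 at Hdac6, 0.69 at Kdm3a, 0.67 at Hdac4 and 0.55 at both Kat6a and Crebbp. Among aged samples, replicate 2 was lowest in 40 and replicate 4 highest in 32 of the 57. Against the average of young replicates 1 and 2, the median log2 CPM over the enzyme promoters was -0.16 in young replicate 3 and 0.20, -0.0066, 0.19 and 0.28 in aged replicates 1 to 4. The same medians over all protein-coding gene promoters were -0.066 in young replicate 3 and 0.14, 0.022, 0.15 and 0.15 in the aged samples.

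**Figure D3:**
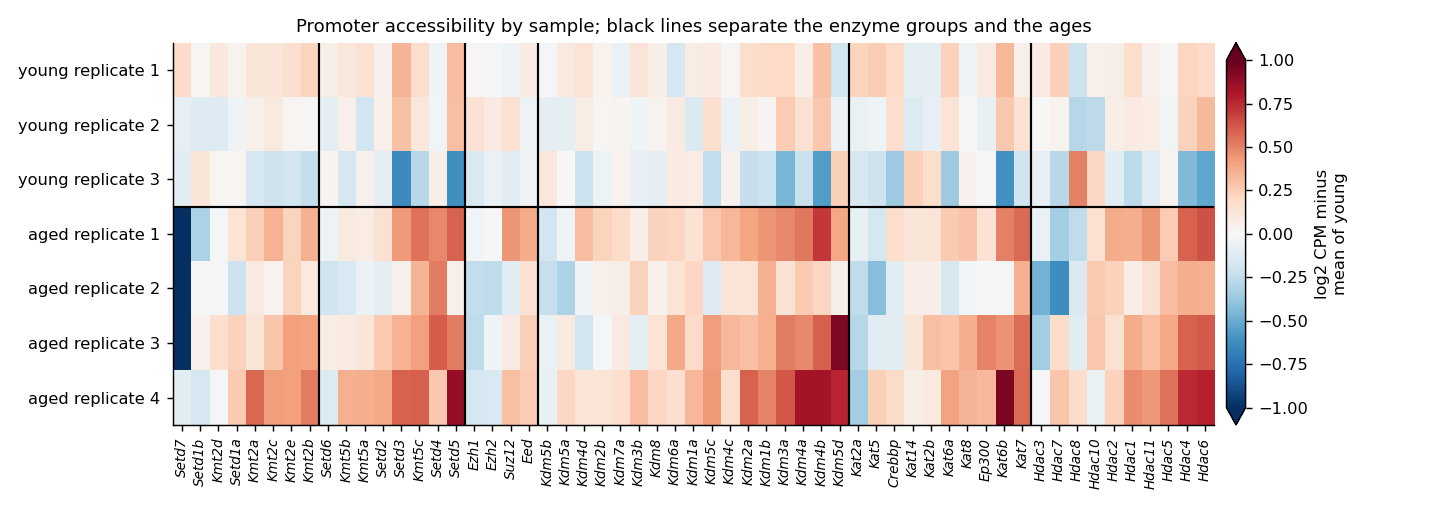
Log2 CPM of the 57 enzyme promoters in each of the 7 samples, minus the mean of the 3 young samples (red higher, blue lower, colours saturating at 1 and -1). Enzyme groups are separated by black lines. Young replicate 3 is the lowest young sample in 36 promoters and aged replicate 4 the highest aged sample in 32, while Setd7 is low in aged replicates 1 to 3.

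The tissue was checked against markers of liver cell types. All 8 hepatocyte markers had a region at a TSS, with a summed 642 to 707 CPM in young and 768 to 890 CPM in aged samples, and 1 of them was called. All 8 had a log2 fold change above 0 (median 0.27), and 4 were higher at an unadjusted p under 0.05. Of 8 markers each, 5 sinusoidal endothelial (72.0 to 80.4 CPM in young, 58.8 to 96.5 in aged), 4 stellate (27.8 to 30.9 and 17.1 to 25.0) and 4 cholangiocyte markers (101 to 125 and 97.7 to 113) had a region, with 0 called by edgeR. At an unadjusted p under 0.05, 0 endothelial markers and 1 marker in each of the stellate and cholangiocyte lists passed, both lower in aged liver. Of the Kupffer cell list only Clec4f had a region (2.22 to 2.65 CPM in young and 0.588 to 2.80 in aged), and 0 of 8 lymphocyte markers had one. The hepatocyte sum was higher and the stellate sum lower in every aged sample, and their part in the results was not tested. In bulk tissue, fewer cells of a type and less accessibility per cell cannot be told apart.

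Among the H3K4 methyltransferases, 6 of 8 promoters were above 0 on the log2 scale (median 0.19), and 0 passed the test (lowest adjusted p 0.063). Setd7, which places a single methyl group on lysine 4 and also modifies proteins other than histones, stood apart. Its promoter region (GRCm38 chr3:51559489-51561624) had 26.3, 21.8 and 21.5 CPM in young replicates 1 to 3 and 10.6, 11.2, 11.4 and 21.5 CPM in aged replicates 1 to 4. Aged replicates 1 to 3 were all below 12 CPM, whereas aged replicate 4, at 21.51 CPM, lay just under the lowest young sample at 21.54. The means were 23.2 ± 2.66 (SD, n = 3) and 13.7 ± 5.22 CPM (SD, n = 4), and the log2 fold change was -0.75 with a standard error of 0.22 and an adjusted p of 0.063, the lowest log2 fold change of the 57. Without aged replicate 4 the adjusted p was 0.0038, and without each of the other libraries it was 0.096 to 0.20. The region also covers the starts of the noncoding transcripts 5031434O11Rik and Gm38200, whose accessibility cannot be told apart from that of Setd7.

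The highest of this group was Kmt2b, an MLL-type enzyme. Its promoter (chr7:30588091-30590552) had 156, 135 and 113 CPM in young and 171, 143, 176 and 191 CPM in aged samples. Aged replicate 2 fell within the young range and the other aged samples above it, and the log2 fold change of 0.34 ± 0.13 (SE) had an adjusted p of 0.14. Offsets on mean abundance, which take out any difference that follows abundance, turned it to -0.047. The other MLL-type genes lay at 0.27 (Kmt2a), 0.27 (Kmt2c), 0.31 (Kmt2e) and 0.029 (Kmt2d), and the SET1-type genes at 0.12 (Setd1a) and -0.11 (Setd1b).

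Of the other SET domain methyltransferases, 7 of 8 promoters had a log2 fold change above 0 (median 0.24), and 1, Setd4, was more accessible in aged liver. The region called for Setd4 (chr16:93590599-93592298) had 47.5, 47.8 and 50.8 CPM in young and 68.1, 69.4, 74.0 and 58.8 CPM in aged samples. Young samples lay close together at 48.7 ± 1.83 (SD, n = 3), and all 4 aged samples were above them, at 67.6 ± 6.38 (SD, n = 4). The log2 fold change was 0.47 ± 0.11 (SE) with an adjusted p of 0.029, and it was lost without young replicate 1, young replicate 2, aged replicate 1 or aged replicate 3, at adjusted p-values from 0.083 to 0.11. This region is the most accessible of 3 at Setd4, but it holds the start of only 1 of 17 annotated Setd4 transcripts, of the nonsense-mediated decay class, and the start of the antisense gene AC160993.1, whose share cannot be told apart. The region at 3 of the 5 protein-coding Setd4 transcripts (chr16:93603354-93604676) had 46.0 ± 5.69 CPM in young and 51.5 ± 4.10 in aged liver, which is 0.16 ± 0.12 on the log2 scale (SE, adjusted p 0.44), and the remaining region (chr16:93592652-93593787) had 0.38 ± 0.13 (SE, adjusted p 0.092), so the call for Setd4 does not extend to its protein-coding start.

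Kmt5c, which trimethylates lysine 20 of histone H4, had the most accessible promoter of the 57 per length (chr7:4739451-4740580, 82.2 CPM per kb over the 7 samples). It had 85.3, 82.0 and 62.0 CPM in young and 110, 95.7, 100 and 115 CPM in aged samples, without overlap, and its log2 fold change of 0.46 ± 0.13 (SE) missed the threshold at an adjusted p of 0.051. Setd5 had the highest estimate of the group, 0.47 ± 0.21 (SE, adjusted p 0.18), at a region (chr6:113075986-113078136) that also covers the start of the antisense gene Gt(ROSA)26Sor. It had 127, 126 and 66.9 CPM in young and 154, 106, 147 and 188 CPM in aged samples, so that young replicate 3 was far below the other young samples and aged replicate 2 lay between them. Without young replicate 3 the log2 fold change of Setd5 was 0.25. Setd6, which methylates proteins other than histones, was the lowest, with 45.4, 40.9 and 44.6 CPM in young, 42.1, 38.0, 46.0 and 39.7 CPM in aged samples and a log2 fold change of -0.073 ± 0.11 (SE, adjusted p 0.73). Its groups overlapped on both sides, and leaving out a library gave log2 fold changes from -0.12 to -0.037 (chr8:95715352-95716712). The remaining members were Setd2, which trimethylates lysine 36 of histone H3, at 0.18, Setd3, an actin methyltransferase, at 0.29, and Kmt5a and Kmt5b, which act on lysine 20 of histone H4, at 0.13 and 0.10.

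The 4 genes of PRC2 divided evenly in sign, and 0 passed the test (lowest adjusted p 0.16). At an unadjusted p under 0.05, 1 (Eed) was higher, against 27.3% of protein-coding gene promoters. The catalytic subunits Ezh1 and Ezh2 had log2 fold changes of -0.18 and -0.12, and the core subunits Suz12 and Eed of 0.19 and 0.26. The promoter of Ezh1 (chr11:101225789-101226708) had 13.0, 14.2 and 11.5 CPM in young and 12.6, 10.8, 10.7 and 11.3 CPM in aged samples (adjusted p 0.54). Aged replicates 2 to 4 were below every young sample by small margins, and without young replicate 2 the log2 fold change was -0.10. The promoter of Eed, whose product binds methylated lysine 27 (chr7:89979919-89981722), had 49.3, 44.9 and 45.4 CPM in young and 60.4, 51.6, 54.9 and 55.6 CPM in aged samples (SE 0.11, adjusted p 0.16). All 4 aged samples were higher, and the start of the noncoding E230029C05Rik lies in the same region.

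Of the 17 lysine demethylases with a region, 15 had a log2 fold change above 0 (median 0.23), and 1, Kdm4a, which removes methyl groups from lysines 9 and 36 of histone H3, was more accessible. Its promoter (chr4:118179217-118180834) had 63.5, 67.5 and 52.0 CPM in young and 87.6, 72.6, 84.5 and 108 CPM in aged samples, with no overlap. The means were 61.0 ± 8.09 (SD, n = 3) and 88.2 ± 14.7 CPM (SD, n = 4), and the log2 fold change was 0.53 ± 0.14 (SE) with an adjusted p of 0.044. Leaving out a library kept the call only without aged replicate 2 (adjusted p 0.031) and otherwise gave adjusted p-values from 0.059 (aged replicate 4) to 0.11 (young replicate 1). A region over a coding exon within Kdm4a was more accessible as well.

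Close to the threshold was Kdm1b, a flavin-dependent demethylase of lysine 4 (0.40 ± 0.12 (SE), adjusted p 0.057), whose region also covers the start of the protein-coding gene Tpmt. The other flavin-dependent enzyme, Kdm1a, had 0.23. The highest estimate was that of Kdm5d, a Y-linked demethylase of lysine 4 (chrY:897502-898025), with 1.30, 1.44 and 1.81 CPM in young and 2.02, 1.57, 3.03 and 2.67 CPM in aged samples. It was also the least accessible promoter per length (3.77 CPM per kb) and rested on 8 to 38 reads per library. The log2 fold change of 0.63 ± 0.35 (SE) did not pass the test (adjusted p 0.28). Its relative Kdm5b had the lowest estimate of the group, -0.14 (adjusted p 0.53), with 28.4, 27.0 and 31.2 CPM in young and 25.3, 24.5, 27.5 and 27.4 CPM in aged samples (chr1:134560100-134561419). The groups overlapped between 27.0 and 27.5 CPM, and without young replicate 3 the log2 fold change was -0.071. The other members of the Kdm5 family, Kdm5a (-0.0011) and Kdm5c (0.24), lay between these. The Kdm5a region also covers the start of the protein-coding gene Ccdc77.

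Within the Kdm4 family the log2 fold changes were 0.53 (Kdm4a), 0.55 (Kdm4b, adjusted p 0.093), 0.25 (Kdm4c) and 0.061 (Kdm4d). A second Kdm4b region, at 1 of its 4 protein-coding transcripts (chr17:56392973-56393741), had -0.39 ± 0.21 (SE, adjusted p 0.28). The Kdm4d region also covers the start of the protein-coding gene Cwc15. Kdm2a had 0.35, and Kdm2b had 0.11 at its most accessible region, which holds the start of 1 of its 8 protein-coding transcripts. The remaining log2 fold changes were 0.41 (Kdm3a), 0.13 (Kdm3b), 0.22 (Kdm6a, which acts on lysine 27), 0.13 (Kdm7a) and 0.15 (Kdm8). In 6 of the 17 (35.3%, against 24% of protein-coding gene promoters) every aged sample lay above every young one (Kdm1a, Kdm1b, Kdm4a, Kdm4c, Kdm6a and Kdm7a).

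Of the 10 histone acetyltransferases, 8 had a log2 fold change above 0 (median 0.17), and 1, Kat7, an enzyme of the MYST family that acetylates histones H3 and H4, was more accessible. Its promoter (chr11:95309426-95310902) had 77.9, 83.1 and 65.4 CPM in young and 111, 96.3, 111 and 111 CPM in aged samples. Aged replicates 1, 3 and 4 had nearly the same value, and the groups did not overlap. The means were 75.5 ± 9.08 (SD, n = 3) and 107 ± 7.46 CPM (SD, n = 4), and the log2 fold change was 0.51 ± 0.12 (SE) with an adjusted p of 0.026, the lowest of the 57. The call was lost without young replicate 1, young replicate 2, aged replicate 1 or aged replicate 3, at adjusted p-values from 0.064 to 0.083. The start of the antisense gene Gm11520 lies in the same region, and ATAC-seq has no strand.

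The other MYST enzymes lay at 0.45 (Kat6b), 0.25 (Kat8), 0.18 (Kat6a) and -0.11 (Kat5). The coactivators Ep300 and Crebbp, which are close relatives, lay at 0.25 and 0.017. Kat2a, the acetyltransferase of the SAGA and ATAC complexes, had the lowest estimate at -0.25 ± 0.17 (SE, adjusted p 0.39), with 18.1, 14.7 and 13.8 CPM in young and 14.7, 12.9, 12.6 and 12.1 CPM in aged samples (chr11:100712056-100712822). Aged replicates 2 to 4 were below every young sample, and without young replicate 1 the log2 fold change was -0.12. Its paralog Kat2b had 0.15, and Kat14, whose region is shared with the protein-coding gene Pet117, had 0.094.

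Of the 10 histone deacetylases with a region, 7 had a positive log2 fold change (median 0.28). None passed the test by edgeR (0 of 10), and the lowest adjusted p was 0.055. At an unadjusted p under 0.05, 6 of 10 were higher, against 27.3% of protein-coding gene promoters. DESeq2 called 3 and limma voom 2 more accessible, where they called 11.9% and 9.2% of protein-coding gene promoters. In 5 of 10, against 24% of all protein-coding gene promoters, every aged sample lay above every young one (Hdac2, Hdac4, Hdac5, Hdac6 and Hdac11). The highest was Hdac6, an X-linked and largely cytoplasmic enzyme that deacetylates tubulin (chrX:7947486-7948346), with 30.3, 33.1 and 18.4 CPM in young and 41.1, 33.9, 40.6 and 45.6 CPM in aged samples. Young replicate 3 was far below the other young samples, and aged replicate 2 just above the highest of them. The log2 fold change was 0.54 ± 0.17 (SE) with an adjusted p of 0.078. Without young replicate 3 the log2 fold change was 0.36 and the adjusted p 0.14.

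The other class II enzymes lay at 0.54 (Hdac4, adjusted p 0.056), 0.38 (Hdac5, adjusted p 0.055), -0.11 (Hdac7) and 0.16 (Hdac10), and Hdac11, the single class IV enzyme, at 0.34. A second Hdac4 region, at noncoding transcripts only (chr1:92112575-92113820), had -0.45 ± 0.30 (SE, adjusted p 0.38). For Hdac5 the region tested held the start of 1 of its 7 protein-coding transcripts. The region at 5 others (chr11:102229434-102230698) had a log2 fold change of 0.11 ± 0.13 (SE, adjusted p 0.65), and there the aged and young samples overlapped. The class I enzymes lay at 0.31 (Hdac1), 0.24 (Hdac2), -0.21 (Hdac3) and -0.085 (Hdac8). Hdac3, the catalytic subunit of the NCoR and SMRT corepressor complexes, had the lowest estimate, with 31.2, 29.6 and 27.8 CPM in young and 28.1, 21.2, 23.1 and 29.1 CPM in aged samples (adjusted p 0.39). Aged replicates 1 and 4 fell within the young range, the log2 fold change was -0.13 without aged replicate 2, and the region also covers the start of the protein-coding gene Rell2.

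The promoters of the 3 called genes are shown as RefSeq gives them for GRCm38.p6, as the 250 bases before the start, from 5′ to 3′ in the direction of the gene, because the accessible regions of Kdm4a and Kat7 lie over them. Capitals mark matches to the motifs CCAAT (NF-Y, read ATTGG on the other strand) and CCGGAAG (ETS, read CTTCCGG on the other strand).
Kdm4a, chr4:118180044-118180293, minus strand: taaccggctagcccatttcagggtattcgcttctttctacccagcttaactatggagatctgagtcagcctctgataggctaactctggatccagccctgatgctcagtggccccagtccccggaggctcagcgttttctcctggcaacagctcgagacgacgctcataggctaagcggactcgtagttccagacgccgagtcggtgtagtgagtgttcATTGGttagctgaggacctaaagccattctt
Kat7, chr11:95310247-95310496, minus strand: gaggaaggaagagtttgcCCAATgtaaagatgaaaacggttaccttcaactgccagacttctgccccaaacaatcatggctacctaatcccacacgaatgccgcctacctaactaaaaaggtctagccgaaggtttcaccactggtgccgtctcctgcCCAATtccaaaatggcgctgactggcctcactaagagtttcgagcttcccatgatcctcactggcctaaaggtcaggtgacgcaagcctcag
Setd4, chr16:93603816-93604065, minus strand: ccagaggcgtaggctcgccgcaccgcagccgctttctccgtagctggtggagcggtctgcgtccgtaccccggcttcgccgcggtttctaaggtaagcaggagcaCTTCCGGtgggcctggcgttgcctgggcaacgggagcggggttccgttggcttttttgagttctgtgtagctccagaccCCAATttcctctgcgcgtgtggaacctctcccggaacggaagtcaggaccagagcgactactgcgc
The Kdm4a sequence holds 1 CCAAT match, on the other strand, 31 bases before the start, with 12 CpG and 53.6% GC. The Kat7 sequence holds 2, at 232 and 92 bases before the start, with 8 CpG and 50.8% GC. The Setd4 sequence lies in the region at the protein-coding start, which was not called, and holds 1 ETS match at 145 and 1 CCAAT match at 66 bases before the start, with 24 CpG and 63.6% GC. None of the 3 holds GGGCGG, the GC box.

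Of the 59 genes, 47 were in the RefSeq table. Over their 250 bases before the start, searched on both strands, 28 held GGGCGG (59.6%, against 35.4% of 27025 genes), 22 held CCAAT (46.8% against 37.5%), 5 the ETS motif CCGGAAG (10.6% against 7.83%), 3 the E-box CACGTG (6.38% against 6.86%), 3 the TATA box TATAAA (6.38% against 14.3%), and 2 the YY1 motif AAGATGG (4.26% against 5.18%). The NRF1 motif CGCATGCG (1.75% of all genes) and the CRE TGACGTCA (1.77%) were in 0 of the 47. Such matches describe the letters and are not evidence of binding.

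Beside the region used for each gene, 12 further regions lay at alternative starts of 9 enzyme genes. The median of their log2 fold changes was 0.099, 8 were above 0, and 0 were called by edgeR (at an unadjusted p under 0.05, 3 higher, or 25%, and 1 lower, or 8.33%, against 23% and 9.13% of all promoter regions; lowest adjusted p 0.077, at a downstream start of Kdm2a with 0.34). At Kdm2b, the region at 5 of its 8 protein-coding starts (chr5:122988170-122990054) had 15.0 ± 0.113 CPM in young and 11.6 ± 0.433 in aged liver (SD), with all 4 aged samples lower and a log2 fold change of -0.37 ± 0.16 (SE, adjusted p 0.16), while the most accessible region of the gene had 0.11.

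Away from promoters, 115 regions lay inside the 59 enzyme genes, Hdac9 and Kdm6b included, 89 of them in introns and 14 over coding exons without UTR, with 5 more over both a coding exon and a 3′ UTR, most in Kat6b (13), Kat2b (10) and Hdac4 (9). Of these, 1 was more accessible in aged liver and 4 were less accessible. The background among non-promoter regions in protein-coding genes was 1.46% and 3.35%, close to these counts. The median log2 fold change was -0.068 (-0.079 without the 4 regions of Hdac9 and Kdm6b) against -0.10 for the background, and 71 of the 115 were below 0. In 7 regions (6.09%, against a background of 5.69%) every aged sample lay above every young one, and in 18 below (15.7%, against 12.8%). Leaving out a library gave 0 or 1 more accessible regions (0 without young replicate 1 or 2, where 0.077% and 0.261% of non-promoter regions in protein-coding genes were called more accessible, against up to 2.01% in the other fits) and 0 to 7 less accessible ones: 0 without young replicate 1, young replicate 2, aged replicate 2 or aged replicate 3, 1 without aged replicate 1, 3 without young replicate 3 and 7 without aged replicate 4. The share of non-promoter regions in protein-coding genes called less accessible was 0.218%, 0.364%, 2.52% and 0.766% in the 4 fits that gave 0, and 0.441%, 2.87% and 4.78% in the other 3.

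The more accessible region lay over a coding exon of Kdm4a (chr4:118147256-118148724), 32053 bp from the gene's start. It had 20.7, 20.1 and 23.7 CPM in young and 35.0, 30.4, 42.0 and 37.4 CPM in aged samples. All 4 aged samples were well above the young ones, and this was the largest increase at an enzyme gene: 21.5 ± 1.91 against 36.2 ± 4.85 CPM (SD), or a log2 fold change of 0.76 ± 0.14 (SE) with an adjusted p of 0.013. Without young replicate 1 or young replicate 2 the adjusted p was 0.064 or 0.063.

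Of the less accessible regions, that with the lowest log2 fold change had few reads. A region over a coding exon near the end of Ep300 (chr15:81649747-81650399), 64722 bp into a gene of 66727 bp, had 5.09, 4.31 and 2.14 CPM in young and 1.76, 0.981, 0.934 and 1.53 CPM in aged samples, on 4 to 114 reads per library. The log2 fold change was -1.51 ± 0.36 (SE, adjusted p 0.030). A region in an intron of Kdm4b (chr17:56357178-56357874) had 6.11, 5.52 and 7.89 CPM in young and 3.78, 1.77, 1.17 and 2.80 CPM in aged samples, a log2 fold change of -1.31 ± 0.32 (SE, adjusted p 0.034). In both regions every aged sample was lower, opposite in sign to the promoters of the same genes (0.25 and 0.55, neither past the threshold), a difference that was not tested. A region in an intron of Setd2 near the end of the gene (chr9:110616431-110617053) had 12.6, 10.2 and 5.10 CPM in young and 4.57, 4.71, 3.74 and 5.47 CPM in aged samples, a log2 fold change of -1.02 ± 0.28 (SE, adjusted p 0.048), with young replicate 3 inside the aged range. The fourth, over an exon of a Setd1b transcript that carries no coding sequence there (chr5:123149547-123151209), was singled out after its values were seen, with 39.2, 32.2 and 32.6 CPM in young, 23.7, 21.8, 24.0 and 28.0 CPM in aged samples and a log2 fold change of -0.50 ± 0.14 (SE, adjusted p 0.045). Each of these 4 calls was lost without young replicate 1, young replicate 2, aged replicate 2 or aged replicate 3, at adjusted p-values from 0.052 to 0.20. Without aged replicate 1 those of Ep300, Setd2 and Setd1b were lost (0.064, 0.12 and 0.11), and without young replicate 3 those of Kdm4b and Setd1b (0.080 and 0.060).

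**Figure D4:**
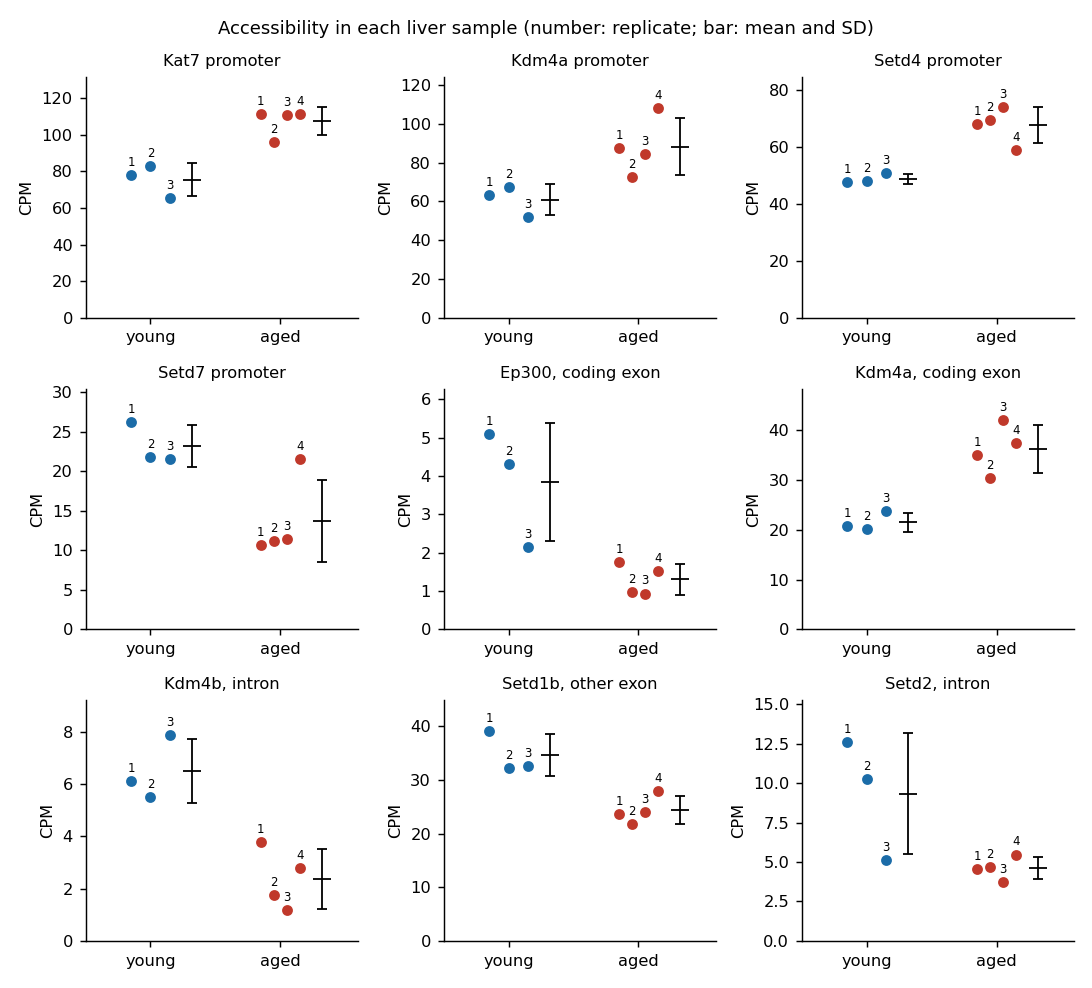
CPM in each sample for the called promoters Kat7, Kdm4a and Setd4, the promoter of Setd7 (adjusted p 0.063) and the 5 called regions inside enzyme genes. The Setd4 region shown holds none of its protein-coding starts. Numbers are replicates, and bars show the mean and SD of 3 young and 4 aged samples. The groups do not overlap except in the Setd2 intron, where young replicate 3 (5.10 CPM) lies below aged replicate 4 (5.47 CPM).

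Promoters of genes that work with these enzymes were read from the same fit. Of 126 other genes of histone methylation and acetylation (further methyltransferases, demethylases, acetyltransferases and deacetylases, and subunits of their complexes), 123 had a region at a TSS, 7 were more accessible in aged liver (against the background of 5.02% of promoters) and 0 less accessible by edgeR (0 by DESeq2 and by limma voom). At an unadjusted p under 0.05, 47 were higher (38.2%, against 27.3% of protein-coding gene promoters) and 3 lower (2.44%, against 7.69%). Their median log2 fold change was 0.21, with 101 above (82.1%, against 66.7% of protein-coding gene promoters) and 22 below 0, and in 40 of them (32.5%, against 24%) every aged sample lay above every young one. Of the 33 partners of acetyltransferases, 4 were called: Tada3, an adaptor of the SAGA and ATAC complexes (0.61 ± 0.15 (SE), adjusted p 0.037), Ing3 and Ing5, readers in MYST complexes, and Phf20 of the Kat8 complex. The other 3 were Phf19, an accessory subunit of PRC2 (0.59 ± 0.14 (SE), adjusted p 0.032), Carm1, an arginine methyltransferase (0.53 ± 0.14 (SE), adjusted p 0.043), and Sap130 of the Sin3 deacetylase complex. Tada3 had 52.5 ± 9.91 CPM in young and 80.2 ± 13.6 in aged liver, Phf19 131 ± 28.0 and 196 ± 17.9, and Carm1 139 ± 27.5 and 202 ± 21.7 (SD, n = 3 and 4). All 4 aged samples were above the young ones in each of the 7. The count was 0 without any 1 of young replicates 1 to 3 or without aged replicate 1 or 3, 5 without aged replicate 4 and 15 without aged replicate 2, fits in which 0.115% to 3.19%, 4.64% and 6.66% of protein-coding gene promoters were called more accessible.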

How the data were processed

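The authors deposited raw counts of ATAC-seq reads in 55680 consensus regions of GRCm38, with 1 column per library and no normalization. Per the submitters' notes and the methods, reads were trimmed (cutadapt 1.13), aligned (Bowtie2 2.4.1) and filtered, with duplicates and mitochondrial reads removed, peaks were called per library (MACS2 2.2.7), and reads were counted with featureCounts in peaks shared by at least 2 libraries. A region must have been called to be counted, so loci below that level are not measured. The 7 columns matched the samples' descriptions. Library pairs of the same age differed beyond counting noise (chi-square per degree of freedom 2.38 to 6.06).

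Here all regions were fitted with edgeR 4.0.16 in R 4.3.3 (TMM, quasi-likelihood test, age as the only term, Benjamini-Hochberg adjustment at 0.05), after a test on simulated counts. Standard errors are the log2 fold change divided by the square root of F, and log2 CPM used a prior count of 2. A gene was called by its region within 200 bp of a GENCODE M21 TSS with the highest mean log2 CPM. Values were given in every sample for called genes, for the highest and lowest log2 fold change in each enzyme group, for the most and least accessible promoter per length, and for up to 3 called regions inside the genes in each direction. Of the other genes, the 3 largest increases among those called were given. The genes and lists were chosen with earlier results of these data known. The 184 regions at these genes were aligned to the genome with minimap2 2.31, and 0 had a near-identical copy on another chromosome position (80% of the length at 95% identity), with 3 matching unplaced scaffolds only. DESeq2 1.42.0, limma 3.58.1 (voom), other scalings, filters, promoter definitions, sums of aged samples and leaving out libraries were the alternatives. Figures were drawn with matplotlib 3.10.9.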

Additional observations from a re-analysis of the deposited data

Results flagged for a closer look

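In 2 promoters, 1 aged sample lay further from the other 3 than Dixon's 95% limit allows. At Setd7, aged replicate 4 had a log2 CPM of 4.44, against 3.44 to 3.54 in the other aged samples and 4.44 to 4.73 in the young ones. At Kat7, aged replicate 2 had a log2 CPM of 6.59, against 6.80 in each of the other aged samples and 6.04 to 6.38 in the young ones. Of the 19 values examined in this way about 1 in 20 would be marked by chance.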

How the results depend on the processing

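The count of more accessible enzyme promoters (3) was 8 with DESeq2, 7 with limma voom, 11 with offsets on GC content and 1 with total counts (14%, 12.3%, 19.3% and 1.75% of the 57, where 11.9%, 9.2%, 16.7% and 1.67% of all protein-coding gene promoters were called). It was 0 with offsets on mean abundance and with a filter of 10 counts in every sample, where 0.115% and 1.38% of those promoters were called. At a threshold of 0.01 it was 0 as well. The count of less accessible ones (0) was 1 with DESeq2, limma voom, offsets on GC content, total counts and the replicate block, Setd7 in each, where 1.6%, 2.17%, 1.89%, 2.97% and 2.37% of all protein-coding gene promoters were called less accessible. Inside the genes, the count of more accessible regions (1) was 2 with DESeq2 and with offsets on GC content and 0 at 0.01 (2.64%, 3.19% and 0.0685% of all such regions), and that of less accessible ones (4) was 9 with total counts, 1 with offsets on mean abundance, 1 with the filter and 0 at 0.01, where 5.4%, 0.74%, 1.48% and 0.171% of all non-promoter regions in protein-coding genes were called less accessible. Among the 123 other genes, the count of more accessible promoters (7) was 25, 17, 34 and 2 with DESeq2, limma voom, offsets on GC content and total counts. These settings called 11.9%, 9.2%, 16.7% and 1.67% of all protein-coding gene promoters. The count was 0 with offsets on mean abundance and with the filter, where 0.115% and 1.38% were called, and 0 at 0.01. Offsets on mean abundance take out any difference that follows abundance. They turned the median of the enzymes to -0.018 and Kmt2b to -0.047, and left 0.115% of all protein-coding gene promoters called more accessible. The median over all regions was -0.035 with TMM and -0.15 with total counts, so differences with total counts are to be read against that shift. Leaving out 1 library gave 0 to 5 more and 0 to 1 less accessible enzyme promoters, 0 to 1 more and 0 to 7 less accessible regions inside genes, 0 to 15 other genes and a median of 0.19 to 0.26.

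Summing aged samples by pairs, as for lobules of 1 animal, gave 0 more accessible enzyme promoters, 0 less accessible inner regions and 0 other genes for replicates 1 and 3; 1, 0 and 2 for replicates 2 and 3; and 7, 7 and 19 for replicates 2 and 4, with 1 less accessible promoter. These sums called 0.591%, 2.41% and 9.15% of all protein-coding gene promoters more accessible, and 1.11%, 1.92% and 4.81% of non-promoter regions less accessible; for replicates 2 and 4, 2.15% of promoters were less accessible. For replicates 1 and 2 there were 2 less accessible inner regions (2.34% of all such regions). For 1 and 4 there were 1 less accessible promoter and 3 other genes (1.63% of promoters less and 3.03% more accessible). For 3 and 4 there were 1 less accessible promoter, 2 less accessible inner regions and 1 other gene (1.17% of promoters less accessible, 2.5% of inner regions and 1.99% of promoters more accessible). Replicate numbers did not pair the samples (correlations of deviations -0.12, 0.056 and 0.030). A fit with the number as a replicate block called 2 enzyme promoters more accessible, Kat7 and Setd4, 1 less accessible and 3 other genes more accessible, where 3.27% of all protein-coding gene promoters were called more accessible. The other alternatives moved no count by over 1.5 times. The part of depth, promoter strength or library quality in these differences was not tested.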
